A study of Mus musculus with 8 samples.

Results

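The receptors by which macrophages bind particles, microbes and dying cells were followed in RNA-Seq of the mouse distal lung: Msr1, Marco, Mrc1, Cd36, Clec7a, Emr1, Itgax, Stab1, Mertk and Cd14. They are 10 of the 22756 genes in the files, and they were taken by symbol. The group was chosen on the level of Msr1, which separates the genotypes in these libraries, with the question whether the other 9 receptors of alveolar macrophages (AM) follow it across genotype and cigarette smoke (CS). The genotype difference of Msr1 is therefore a description here, without a test. All 10 passed the abundance filter, a mean count of at least 200 over the 8 libraries, as did 7190 genes in all. Msr1 passed it only through the α7E260A:G groups, since its mean count was 162 and 63.5 in the 2 α7G groups, while each of the other 9 exceeded 200 in every group.

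Scavenger and pattern receptors are surface proteins of phagocytes. The scavenger receptors bind modified lipoproteins, inhaled particles and bacteria, the lectins bind sugars of microbes and of host glycoproteins, and Mertk and Stab1 bind dying cells through exposed phosphatidylserine. In the lung they are best known from AM, which live in the airspace, clear surfactant and dust, and carry high Marco and the integrin subunit encoded by Itgax.

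The mice carried an IRES-tauGFP reporter in the gene of the nicotinic receptor α7, Chrna7, either with the normal receptor (α7G) or with the E260A point mutation that limits calcium signaling through it (α7E260A:G). Both lines were adult animals of largely C57BL/6 background and carried the reporter, so every group shared it. Mice of each genotype breathed side-stream CS for 4 months, 5 days a week, or room air as control. There were 8 libraries, 1 of male and 1 of female mice in each of the 4 groups; the number of mice behind a library is not stated, and the spread between the libraries of a group is also a spread between sexes. The mutation is in the germ line, so it was present in macrophages, epithelium and all other cells alike. Total counts per library lay between 8020726 and 10944100, and Chrna7 had a count of 0 in 7 libraries and of 4 in the male α7E260A:G control, too low to check the genotype by its level; counts carry no sequence of the substitution.

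The cells were the lavaged distal lung depleted of CD45+ cells, so macrophages were not the cells the preparation aimed for. The study describes them as nearly all positive for the EpCAM protein. Levels of RNA do not measure that purity, but transcripts of leukocytes were plentiful. Epithelial transcripts were present too. Epcam lay between 78.5 and 212 RPM (reads per 1000000 counts of the library) and Krt19 between 501 and 997 RPM. Sftpc, the surfactant protein C of ATII cells, lay between 2320 and 20100 RPM. Ptprc, which encodes CD45, was at 771 to 1940 RPM and above Epcam in 8 of 8 libraries. RPM is not corrected for the length of the coding sequence, so this order does not compare numbers of transcripts. The 22 AM markers summed to 13660 to 22690 RPM in the α7G libraries and to 29320 to 49760 RPM in the α7E260A:G libraries, without overlap. In bulk samples fewer cells of a type and less RNA per cell cannot be told apart. The 9 ATII markers lay the other way, with sums of 19540 to 30040 RPM in α7G and 4508 to 14410 RPM in α7E260A:G, where every library had a higher sum of AM than of ATII markers. Libraries also differed in how their counts depended on coding sequence (CDS) length, from a gain of 0.411 on the log2 scale per doubling of length in the male α7E260A:G control to −0.244 in the male α7G CS library, and results are given with and without an offset for it. Scaling stood apart in the female α7E260A:G control, with a TMM factor of 0.834 against 0.931 to 1.094 in the other 7 libraries.

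Promoters of the receptors are shown here because several receptors shared a pattern over the libraries. RefSeq windows of the GRCm38.p6 build, 250 bases before to 50 bases after the annotated start, were at hand for 7 of the 10: Marco, Mrc1, Cd36, Clec7a, Itgax, Stab1 and Mertk. Printed 5′ to 3′ on the strand of the gene, with capitals for the core motif of the macrophage factor PU.1 (GAGGAA, or TTCCTC on the other strand), 4 that were higher in α7E260A:G and Cd36, which was not, read as follows. The windows are chr1:120504975-120505274 minus strand for Marco, chr2:14229164-14229463 plus strand for Mrc1, chr6:129472730-129473029 minus strand for Clec7a, the first of 2 listed starts, chr7:128129300-128129599 plus strand for Itgax, and chr5:17835847-17836146 minus strand for Cd36.
Marco: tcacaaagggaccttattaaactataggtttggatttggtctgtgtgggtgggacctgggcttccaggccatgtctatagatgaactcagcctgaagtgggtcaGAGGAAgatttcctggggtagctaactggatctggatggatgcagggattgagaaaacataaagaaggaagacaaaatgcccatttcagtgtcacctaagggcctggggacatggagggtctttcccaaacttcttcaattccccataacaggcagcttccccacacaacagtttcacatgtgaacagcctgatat
Mrc1: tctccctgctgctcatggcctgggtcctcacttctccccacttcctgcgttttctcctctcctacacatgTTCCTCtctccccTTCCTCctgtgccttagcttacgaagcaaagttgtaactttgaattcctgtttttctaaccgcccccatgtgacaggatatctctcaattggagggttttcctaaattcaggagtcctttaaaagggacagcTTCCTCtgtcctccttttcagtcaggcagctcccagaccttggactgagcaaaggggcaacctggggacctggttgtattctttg
Clec7a: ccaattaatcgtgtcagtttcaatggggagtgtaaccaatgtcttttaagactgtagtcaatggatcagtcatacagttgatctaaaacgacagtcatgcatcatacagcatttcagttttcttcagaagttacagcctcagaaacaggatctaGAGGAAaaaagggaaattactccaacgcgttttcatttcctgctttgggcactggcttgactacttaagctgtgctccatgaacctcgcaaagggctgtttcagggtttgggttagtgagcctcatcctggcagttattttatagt
Itgax: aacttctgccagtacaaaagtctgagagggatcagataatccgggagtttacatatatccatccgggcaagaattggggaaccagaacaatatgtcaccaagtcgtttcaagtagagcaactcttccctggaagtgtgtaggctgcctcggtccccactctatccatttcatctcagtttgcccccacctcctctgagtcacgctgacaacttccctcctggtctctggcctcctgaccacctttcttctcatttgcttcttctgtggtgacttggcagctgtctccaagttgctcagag
Cd36: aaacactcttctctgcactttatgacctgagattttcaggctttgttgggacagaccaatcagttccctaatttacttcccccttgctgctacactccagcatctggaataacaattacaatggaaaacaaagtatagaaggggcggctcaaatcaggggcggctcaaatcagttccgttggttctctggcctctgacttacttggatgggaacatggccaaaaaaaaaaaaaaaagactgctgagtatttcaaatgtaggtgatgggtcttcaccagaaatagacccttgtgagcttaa
The PU.1 core was present in 4 of the 7 genes (Marco, Mrc1, Clec7a and Stab1), with 3 copies in Mrc1, and it was absent from the windows of Cd36, Itgax and Mertk. Of 32544 distinct promoter windows of this length, 28.1% held it on one strand or the other. The AP-1 motif TGANTCA, held by 7.79% of windows, and the antioxidant response core TGACNNNGC, held by 12.4%, were each in 1 member, Itgax, whose window holds no PU.1 core. These are matches of letters in a window, not binding sites.

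Marco and Msr1 are class A scavenger receptors, collagen-like trimers that bind particles and bacteria. Msr1 (ENSMUSG00000025044.8, chromosome 8, 40667054 to 40728032, minus strand, NCBIM37 build) was at 18.6 RPM in the male and 17.9 RPM in the female α7G control and at 6.29 and 8.24 RPM after CS. In α7E260A:G it was at 71.9 and 77.4 RPM in the controls and at 67.1 and 93.7 RPM after CS. No α7E260A:G library came near the α7G libraries, and the genotypes were further apart after CS than before it. The ratio of α7E260A:G to α7G was 4.08 in controls and 11.1 after CS, and the fitted difference over both exposures was 2.83 (SE 0.24) on the log2 scale, which is the value that chose the group.

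Marco (ENSMUSG00000026390.1, chromosome 1, 122371115 to 122401661, minus strand) followed Msr1 most closely in size among the other 9, but not in its response to CS. Its levels were 163 RPM (male) and 312 RPM (female) in α7G control, 487 and 456 RPM in α7G CS, 612 and 837 RPM in α7E260A:G control, and 1526 and 1618 RPM in α7E260A:G CS. All 4 α7E260A:G libraries lay above all 4 α7G libraries, and within a sex and exposure the ratio was between 2.68 and 3.76. The log2 fold-change between genotypes was 1.75 (SE 0.29), with an adjusted p of 0.105 in edgeR. With the CDS length offset it was 1.76, with an adjusted p of 0.00804.

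The lectins and the F4/80 antigen were higher in α7E260A:G by smaller amounts. Mrc1, the mannose receptor CD206 (ENSMUSG00000026712.2, chromosome 2, 14151041 to 14253684, plus strand), was at 860 and 790 RPM in α7G control (male, then female), at 406 and 498 RPM in α7G CS, at 1619 and 925 RPM in α7E260A:G control and at 1376 and 939 RPM in α7E260A:G CS. Clec7a, the β-glucan receptor dectin-1 (ENSMUSG00000079293.1, chromosome 6, 129411611 to 129422790, minus strand), was almost level in α7G, between 307 and 323 RPM in the 4 libraries, and lay between 409 and 736 RPM in α7E260A:G. Neither gene had an α7E260A:G library within the α7G range, although the female α7E260A:G libraries of Mrc1 stood close to it. The log2 fold-change was 1.02 (SE 0.19) for Mrc1 and 0.91 (SE 0.23) for Clec7a. Emr1, the F4/80 antigen of mouse macrophages (ENSMUSG00000004730.7, chromosome 17, 57498109 to 57622952, plus strand), ranged from 160 to 328 RPM in α7G and from 319 to 474 RPM in α7E260A:G. The male α7G control, at 328 RPM, was above the female α7E260A:G control, at 319 RPM, and this was the only crossing. Within a sex and exposure Emr1 was higher in α7E260A:G in 4 of 4 pairs, by ratios of 1.45 to 2.44.

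Itgax and Mertk kept nearly the same pattern as each other. Itgax, the CD11c integrin subunit (ENSMUSG00000030789.7, chromosome 7, 135273061 to 135294171, plus strand), ranged from 514 to 694 RPM in α7G and from 702 to 1208 RPM in α7E260A:G, so that the gap between the nearest libraries was small. Mertk, the receptor kinase that takes up dying cells (ENSMUSG00000014361.5, chromosome 2, 128524692 to 128628630, plus strand), ranged from 105 to 153 RPM and from 154 to 348 RPM, with the female α7E260A:G control at the lower end. The log2 fold-change was 0.79 (SE 0.15) for Itgax and 1.00 (SE 0.18) for Mertk.

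Cd36, Cd14 and Stab1 did not follow Msr1. Cd36, the fatty acid and oxidized lipoprotein receptor (ENSMUSG00000002944.8, chromosome 5, 17287508 to 17394777, minus strand), was at 951 and 948 RPM in α7G control (male, then female), at 793 and 818 RPM in α7G CS, at 597 and 616 RPM in α7E260A:G control and at 1049 and 1091 RPM in α7E260A:G CS. The sexes stood within a few percent of each other in every group and the 4 groups were all apart, with the lowest and the highest levels both in α7E260A:G. The log2 fold-change over both exposures was −0.05 (SE 0.17), since Cd36 was lower in α7E260A:G in controls, at a ratio of 0.639, and higher after CS, at 1.33. Cd14, which passes bacterial lipopolysaccharide to Tlr4 (ENSMUSG00000051439.6, chromosome 18, 36884728 to 36886390, minus strand), ranged from 137 to 163 RPM in α7G and from 106 to 176 RPM in α7E260A:G, with a log2 fold-change of −0.05 (SE 0.23). Stab1, which also is expressed by sinusoidal and lymphatic endothelium (ENSMUSG00000042286.7, chromosome 14, 31952199 to 31981827, minus strand), was apart between the sexes in 3 of 4 groups. It was at 150 and 144 RPM in the male controls of α7G and α7E260A:G and at 53.7 and 41.5 RPM in the female controls. After CS it was at 35.3 RPM (male) and 43.8 RPM (female) in α7G and at 96.5 and 40.7 RPM in α7E260A:G, so that the genotypes overlapped. Stab1 has the longest CDS of the 10, 7713 bases, and its log2 fold-change went from 0.33 (SE 0.44) to −0.12 (SE 0.21) with the CDS length offset.

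**Figure D1:**
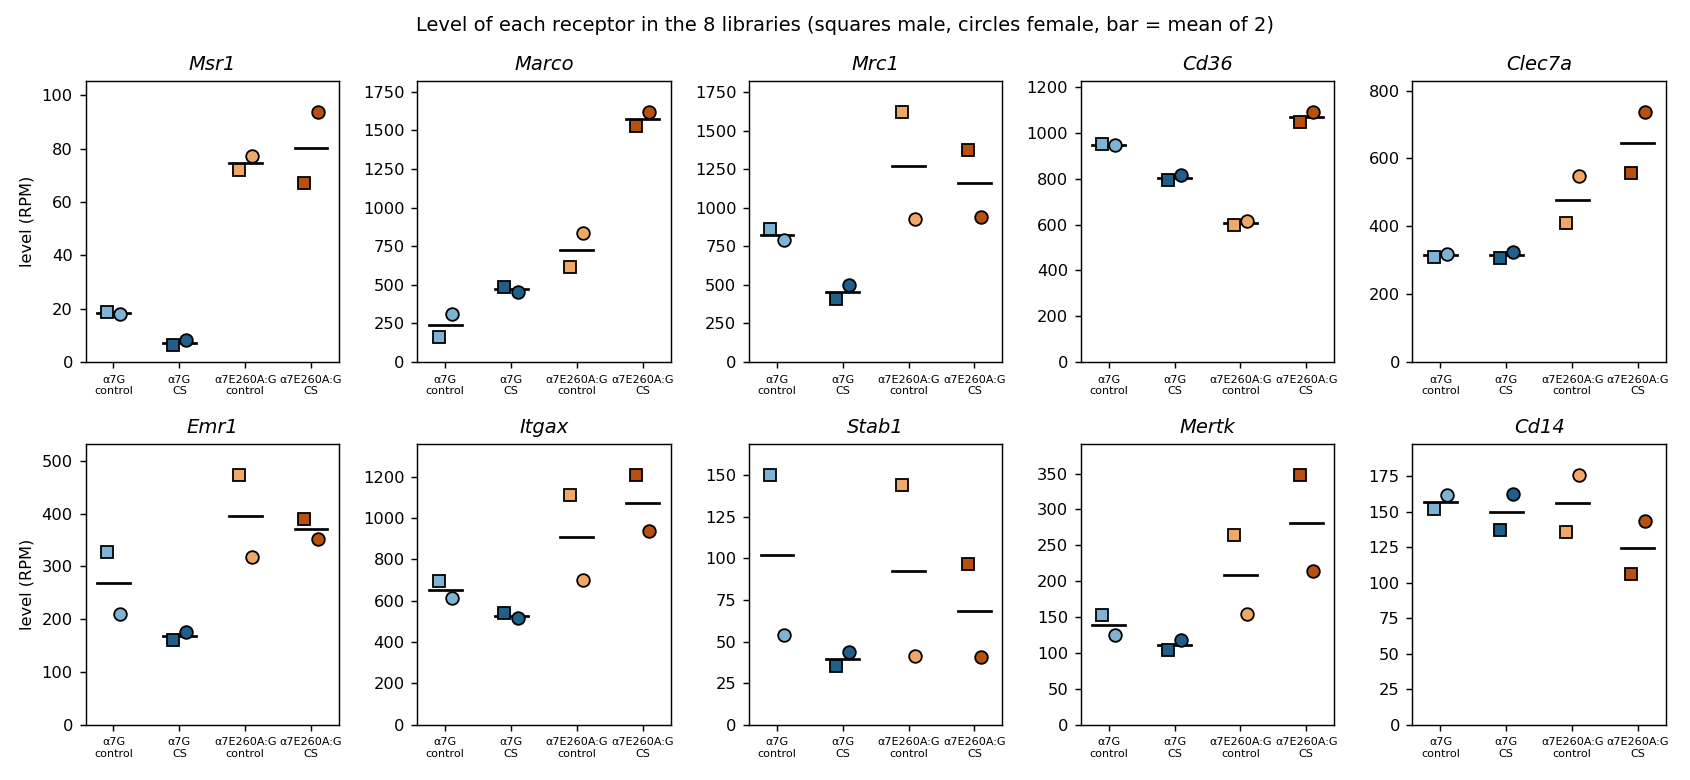
Level of each of the 10 receptors in RPM (y axis, from 0, its own scale in each panel) in the 4 groups (x axis), with squares for male and circles for female libraries and a bar at the mean of the 2. Msr1, Marco, Mrc1, Clec7a, Itgax and Mertk lie higher in all 4 α7E260A:G libraries than in any α7G library, Emr1 crosses once, and Cd36 has both its lowest and its highest group in α7E260A:G.

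Over the other 9 receptors the genotype comparison gave 0 of 9 past an adjusted p of 0.05 in edgeR, where 0.0834% of all tested genes passed. Without adjustment 6 of 9 had p under 0.05 in edgeR (Marco, Mrc1, Clec7a, Emr1, Itgax and Mertk), against 11.9% of all tested genes, and all 6 were higher in α7E260A:G. Their adjusted p lay between 0.105 and 0.165. The same 6 passed after adjustment with the CDS length offset, where 6.62% of genes passed, and with DESeq2, where 5.87% passed. The median log2 fold-change was 0.91 for the other 9 and 0.04 for all tested genes.

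A single library bore on that count. Without the female α7E260A:G control 5 of 9 passed in edgeR (Marco, Mrc1, Emr1, Itgax and Mertk), with 3.82% of all tested genes, and without the male α7E260A:G control 2 of 9 passed (Marco and Clec7a), with 1.68% of all tested genes; without any 1 of the other 6 libraries the count was 0.

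By position alone, 5 of the other 9 (Marco, Mrc1, Clec7a, Itgax and Mertk) had all 4 α7E260A:G libraries above all 4 α7G libraries, which held for 2.99% of tested genes, and 0 of 9 had them below. Compared within sex and exposure, 6 of 9 were higher in α7E260A:G in 4 of 4 pairs, against 7.84% of tested genes. The pairs were not alike in size. The ratio of Mertk was 1.73 in male controls, 1.24 in female controls, 3.33 in males after CS and 1.82 in females after CS. For Mrc1 the 4 ratios were 1.88, 1.17, 3.39 and 1.88 in the same order.

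**Figure D2:**
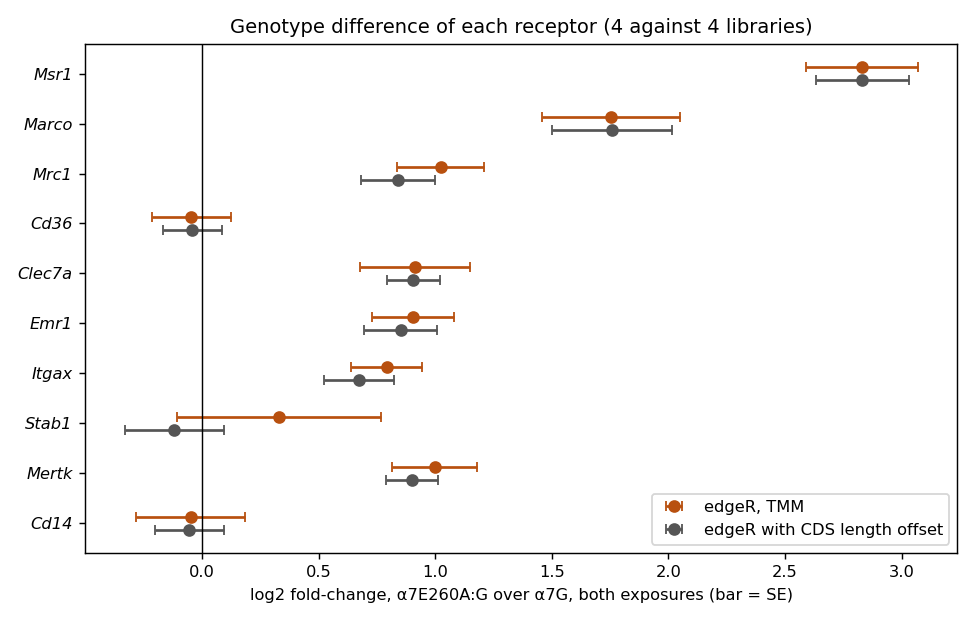
Log2 fold-change of each receptor between α7E260A:G and α7G over both exposures (x axis; 4 libraries each, bars are SE), fitted with edgeR without and with an offset for CDS length. Msr1 stands at 2.83 and Marco at 1.75, Mrc1, Clec7a, Emr1, Itgax and Mertk lie between 0.79 and 1.02 without the offset, Cd36 and Cd14 sit at −0.05, and Stab1 changes sign with the offset.

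CS was compared with control within each genotype, which asks whether the receptors respond to smoke in company with Msr1. The values of Msr1 are given as a description, and the counts are of the other 9. In α7G, 0 of 9 passed an adjusted p of 0.05 in edgeR, as did 0.0% of tested genes. An unadjusted p under 0.05 in edgeR was reached by 2 (Marco and Mrc1), against 6.68% of genes. DESeq2 also passed 0 of 9, beside 25 of all 7190 tested genes. Marco was higher after CS, by 1.10 (SE 0.41, adjusted p = 0.589, edgeR) on the log2 scale, a value that went to 0.68 without the male and to 1.72 without the female α7G control. Msr1 was lower, by −1.21 (SE 0.33), and so was Mrc1, by −0.74 (SE 0.26, adjusted p = 0.589, edgeR). Msr1 and Marco thus stood on opposite sides in α7G. The CS libraries of α7G had slopes on CDS length of −0.244 and −0.204 and the controls of 0.229 and 0.0577, and with the offset Mrc1 had −0.18 (SE 0.22), while Msr1 kept −1.26 (SE 0.28) and Marco 1.11 (SE 0.36).

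In α7E260A:G, 0 of 9 passed after adjustment in edgeR, as did 0.0% of tested genes. An unadjusted p under 0.05 in edgeR was reached by 2 (Marco and Cd36), against 1.7% of genes. DESeq2 again passed 0 of 9, beside 11 of all 7190 tested genes. Marco was again higher after CS, by 1.00 (SE 0.41, adjusted p = 1.00, edgeR), and by 0.68 without the male and 1.47 without the female α7E260A:G control. Cd36 was higher by 0.73 (SE 0.24, adjusted p = 1.00, edgeR), at a ratio of 1.76 in males and 1.77 in females. Msr1 was at 0.03 (SE 0.31), less than its error.

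Marco was the 1 receptor of 10 that was higher with CS in both sexes of both genotypes, by ratios of 3.0 and 1.46 in α7G and of 2.49 and 1.93 in α7E260A:G (male, then female), where 13.1% of tested genes had that pattern. For 3 of 10 receptors CS ratios lay on opposite sides of 1 in the genotypes, in both sexes (Cd36, Itgax and Mertk), against 13.8% of tested genes. For Itgax the ratios were 0.779 and 0.841 in α7G and 1.09 and 1.34 in α7E260A:G, and for Mertk 0.685 and 0.945 against 1.32 and 1.39. With the CDS length offset the α7G responses of both turned to 0.27 for Itgax and 0.17 for Mertk on the log2 scale, the side of their α7E260A:G responses.

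The difference of the CS responses between genotypes was tested as an interaction. In edgeR 0 of 9 passed after adjustment, as did 0.0% of tested genes, and 1 had an unadjusted p under 0.05 (Cd36), against 1.42% of genes. With DESeq2 the count was also 0 of 9, beside 3 of all 7190 tested genes. For Msr1 the difference was 1.23 (SE 0.45), given without a test, and for Cd36 it was 0.84 (SE 0.34, adjusted p = 0.997, edgeR), both log2 values of the response in α7E260A:G minus that in α7G. For Marco it was −0.10 (SE 0.57), an error too wide to call the 2 responses alike.

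**Figure D3:**
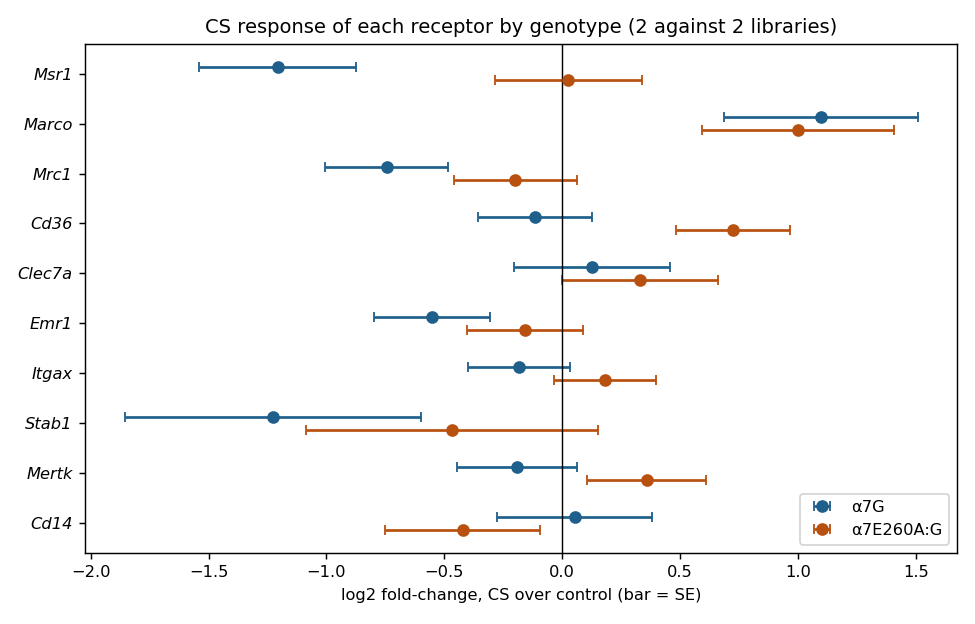
Log2 fold-change of each receptor between CS and control (x axis; 2 libraries each, bars are SE of the edgeR fit) in α7G and in α7E260A:G. Marco lies near 1 in both genotypes, Msr1 lies at −1.21 in α7G and at 0.03 in α7E260A:G, and Cd36 is to the right of 0 in α7E260A:G alone, at 0.73.

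Each receptor was also set against the AM markers of its own library, as log2(RPM + 0.5) minus the mean of the same value over 21 markers, because these markers differed between the genotypes. That mean was between 8.01 and 8.40 in the α7G libraries and between 8.72 and 9.30 in the α7E260A:G libraries, a difference of 0.83. On this scale Msr1 was still apart, at −2.77 ± 0.17 (SD, n = 4) in α7E260A:G and at −4.63 ± 0.86 in α7G. Of the other 9, 0 were higher without overlap, against 0.139% of tested genes, and 2 were lower (Cd36 and Cd14), against 51.0% of tested genes. Mrc1, Clec7a, Emr1, Itgax and Mertk differed by 0.13, −0.02, 0.03, −0.10 and 0.09, each less than its SD within a genotype. The SDs are over both exposures and both sexes, so they also hold any difference with CS or sex. Marco was higher by 0.88, with SDs of 0.53 in α7E260A:G and 0.59 in α7G, and its groups overlapped. Without the male α7G CS library Marco did not overlap, and with leukocyte markers in place of AM markers Marco and Clec7a did not. The share of all tested genes is not given for these settings, so they are not a result about the receptors.

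The CS groups were compared on the same scale, on which the marker mean itself went from 8.13 to 8.32 in α7G and from 8.93 to 9.16 in α7E260A:G. Marco was higher after CS without overlap in both genotypes, by 0.87 in α7G, where 12.5% of tested genes were higher, and by 0.91 in α7E260A:G, where 4.13% were. In α7G the other 9 receptors, Msr1 included, were each lower after CS without overlap, from −0.19 for Clec7a to −1.48 for Msr1, but so were 50.3% of tested genes. In α7E260A:G, Cd36 and Clec7a were higher, by 0.59 and 0.21, Cd14 was lower, by −0.55, beside 7.5% of tested genes, and 6 receptors overlapped.

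**Figure D4:**
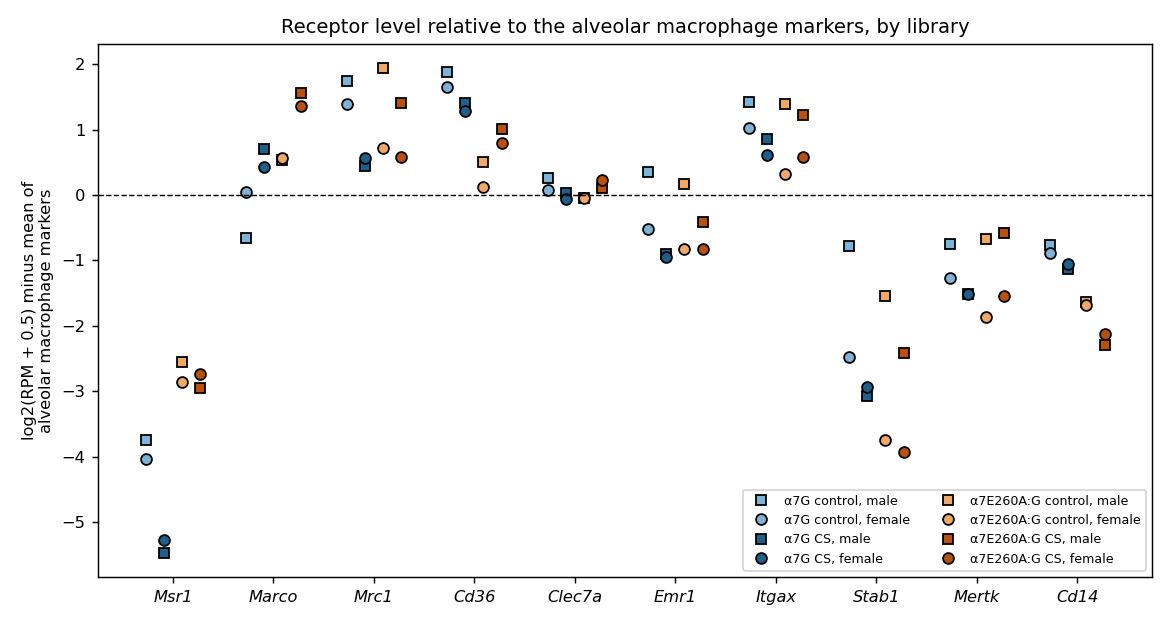
Level of each receptor relative to the mean of the 21 AM markers of the same library, as a difference of log2(RPM + 0.5) (y axis; dashed line, the marker mean), for the 8 libraries. Msr1 is the receptor whose α7E260A:G libraries all lie above its α7G libraries, Cd36 and Cd14 lie below, and the other 7 overlap.

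Over the 8 libraries the pattern of Emr1 was most like that of Msr1, with a Pearson r of 0.93 between log2 CPM values, followed by Itgax at 0.92, Mrc1 at 0.91, Mertk at 0.86 and Clec7a at 0.83. Marco had 0.67, Stab1 0.27, Cd36 0.01 and Cd14 −0.02. Of all tested genes 3.49% had an r of 0.8 or more to Msr1, and the median was 0.01; the libraries share their genotype groups, so a gene apart between genotypes has a high r by that alone. Itgax and Mertk had an r of 0.98 to each other, Mrc1 and Emr1 0.94, and Marco was nearer to Clec7a, at 0.89, than to Msr1. Cd36 had no r above 0.34 with any of the other 9. The genes outside the group with the pattern most like Msr1 were Cybb, the catalytic subunit of the phagocyte NADPH oxidase, at 0.995, 3110043O21Rik at 0.992, Hif1a, the hypoxia-inducible factor, at 0.979, Ggta1 and Plek at 0.967, and Fbxl5, Tlr4 and Pion at 0.964. Their genotype differences were smaller than that of Msr1, from 0.49 for Tlr4 to 0.98 for Cybb on the log2 scale.

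Per kilobase of CDS, the scale used here to compare genes, Cd36 and Clec7a were the most abundant receptors, at means of 606 and 599 RPKM over the 8 libraries, and they did not keep an order, with Cd36 above in 4 of 8 libraries. Dividing by CDS length does not remove the dependence on length that differed between libraries, so the order within a library carries that limit. Marco followed at 483 RPKM, with the widest range, 105 to 1041 RPKM. The order at the top differed by genotype: the means were 620 RPKM for Cd36, 430 for Clec7a and 228 for Marco in α7G, and 592, 769 and 739 RPKM in α7E260A:G. In α7E260A:G after CS Marco had the highest mean of the 10, 1012 RPKM. Itgax and Mrc1, at 222 and 212 RPKM, also exchanged places, with Itgax above in 4 of 8 libraries. Cd14 at 134 RPKM, Emr1 at 108, Mertk at 62.0, Msr1 at 32.3 and Stab1 at 9.8 RPKM came next. Emr1 was above Mertk in 8 of 8 libraries, and the remaining neighbours kept their order in 6 or 7 of 8. Msr1 was therefore a low transcript with a wide genotype difference beside receptors that were mostly far more abundant.

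Other families of receptors and partners were read as lists, all in the genotype comparison, and 0 members of any list passed an adjusted p of 0.05 in edgeR. The counts at an unadjusted p under 0.05 stand beside 11.9% of all tested genes in both directions together. Of the other scavenger receptors 9 of 16 were tested, 4 with an unadjusted p under 0.05 higher and 1 lower, with a median of 0.33. Olr1, the oxidized LDL receptor, was at 1.12 (SE 0.14) and Cd68, the macrophage sialomucin, at 0.90 (SE 0.23). Lrp1, the α2-macroglobulin receptor, was at 1.66 (SE 0.44) but at 0.94 with the CDS length offset, and Ager, a marker of type I pneumocytes in the lung, was at −1.11 (SE 0.41).

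The C-type lectins had 12 of 19 genes tested, 5 higher and 0 lower at an unadjusted p under 0.05, with a median of 0.66. Ly75, or DEC-205, was at 1.24, Clec4n, or dectin-2, at 1.19, Clec4e, or Mincle, at 0.94 and Clec4a2 at 0.87 on the log2 scale. Of the Toll-like and NOD-like receptors 12 of 17 were tested, 6 higher and 1 lower, with a median of 0.53. The 4 with the largest differences were the nucleic acid sensors Tlr8 (0.97), Tlr7 (0.84) and Tlr13 (0.78) and the inflammasome sensor Nlrp3 (0.65). Nlrp3 was not among the 6 that were higher at that p.

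Genes of apoptotic cell uptake had 10 of 14 tested, 4 higher and 1 lower, with a median of 0.36. Axl, the sister kinase of Mertk, was at 0.83 and the integrin subunit Itgb5 at 0.55, while the bridging protein Mfge8 was at −0.89. Of the partners and adaptors of the receptors 13 of 16 were tested, 3 higher and 0 lower, with a median of 0.14. The 3 were Card9 (0.69), which acts below Clec7a, Itgb2 (0.53), which pairs with Itgax, and Tlr4 (0.49). Tyrobp (0.80) and Fcer1g (0.73) were not among them. Both, like Itgb2, also stand in the list of leukocyte markers. Factors of the macrophage lineage had 11 of 13 tested, 6 higher and 0 lower, with a median of 0.50. Among them were the receptor subunits for GM-CSF, Csf2rb (1.03) and Csf2ra (0.63), and the AM factors Bhlhe41 (0.75) and Pparg (0.71). Bhlhe41 overlapped in controls, at 26.3 and 20.0 RPM in α7E260A:G (male, then female) and 21.4 and 23.6 RPM in α7G. After CS it was at 78.0 and 45.7 RPM against 23.7 and 23.9 RPM.

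With the CDS length offset the members past an adjusted p of 0.05, higher and lower, were 4 and 0 for other scavenger receptors, 5 and 0 for C-type lectins, 1 and 1 for Toll-like and NOD-like receptors, 3 and 1 for apoptotic cell uptake, 3 and 0 for partners and adaptors and 4 and 0 for lineage factors, where 6.62% of all tested genes passed. These were not always the genes counted without the offset. The 3 partners and adaptors were Card9, Tyrobp and Fcer1g, while Itgb2 and Tlr4 did not pass. Some genes stand in more than 1 list: Tyrobp, Fcer1g and Itgb2 are also leukocyte markers, Cd68 and Pparg also AM markers, Csf1r and Cd163 also markers of interstitial macrophages, Cd209a also a dendritic cell marker, and Lrp1 and Tlr4 are each in a pair of the receptor and partner lists.

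Markers of some cell types also lay apart between the genotypes, in both directions, and their part in the receptor differences was not tested. Of the AM markers 21 of 22 were tested, 14 were higher at an unadjusted p under 0.05 and 0 lower, where 11.9% of all tested genes passed in either direction, 11 were higher without overlap, against 2.99% of all tested genes, and the median was 0.87, close to the 0.91 of the other 9 receptors. Fabp4 (2.78), Slc7a2 (1.75), Chi3l3 (1.47) and Ccl6 (1.24) led them. Fabp4, a fatty acid binding protein, thus differed between the genotypes by about as much as Msr1. Markers of interstitial and monocyte-derived macrophages, 9 of 12 tested, had a median of 0.04 and 1 higher gene, the Fc receptor Fcgr1 (0.81), while Csf1r was at 0.63, Apoe at −0.44 and C1qb at 0.15. The leukocyte markers, 10 of 10 tested, had 3 higher and a median of 0.33, with Lcp1 at 0.45.

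Markers of B cells, ATII cells, epithelium and endothelium had medians on the other side of 0. At an unadjusted p under 0.05, passed by 11.9% of all tested genes, B cell markers had 7 of 8 lower, with a median of −0.98, led by Fcer2a (−1.64), Cd79a (−1.03), Ms4a1 (−1.02) and Cd79b (−0.99). ATII markers had 6 of 8 tested genes lower and a median of −1.21. The largest differences were those of Slc34a2 (−1.45), Lamp3 (−1.38), Sftpc (−1.31) and Sftpd (−1.22), and Sftpc was not among the 6. Epithelial markers had 3 of 5 lower, Epcam at −0.96, Krt18 at −0.79 and Krt8 at −0.71, with Cdh1 at −0.30. Endothelial markers had 3 of 8 lower and a median of −0.40, with Cldn5 at −0.78, Eng at −0.63, Pecam1 at −0.53 and Vwf at 0.57. Of the lymphatic endothelial markers Ccl21a was at 0 in every library, 1 of 3 tested was higher at an unadjusted p under 0.05 (Reln at 1.57), Flt4 at 0.87 and Lyve1 at −0.33.

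In the remaining lists 1 gene had an unadjusted p under 0.05, the dendritic cell marker Ccr7 (−0.64), beside Itgae (0.19) and Flt3 (−0.08). No T cell, neutrophil or fibroblast marker did, with medians of −0.25, 0.21 and 0.69. The T cell genes with the largest differences were Cd8b1 (−0.41), Cd2 (0.36), Cd3e (−0.35) and Cd8a (−0.35), those of neutrophils Mmp8 (0.66), Csf3r (0.38), Cxcr2 (0.27) and S100a8 (0.21), and those of fibroblasts Col1a1 (0.85), Col3a1 (0.80), Col1a2 (0.69) and Pdgfra (0.48).

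**Figure D5:**
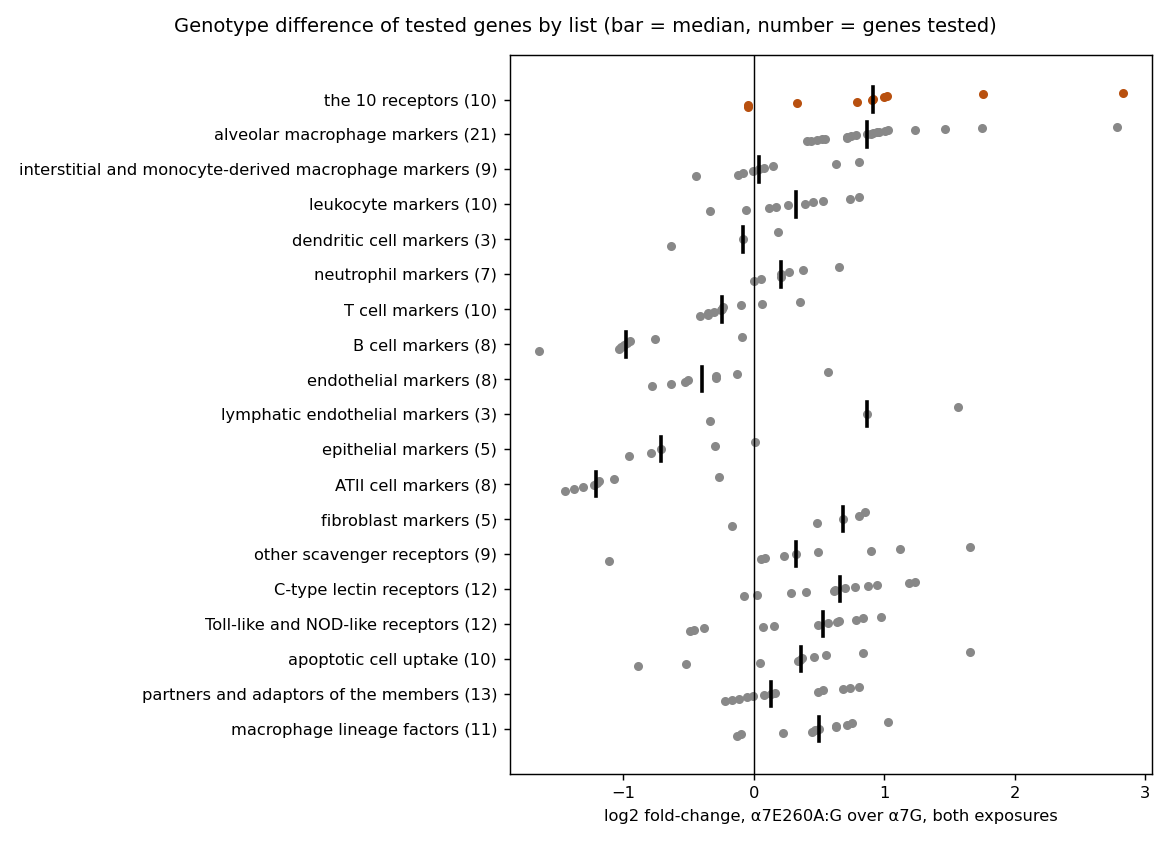
Log2 fold-change between α7E260A:G and α7G over both exposures (x axis) of each tested gene of the 10 receptors and of the lists of cell type markers and related genes (y axis; number of genes tested in parentheses, black bars are medians). The receptors and the AM markers have medians of 0.91 and 0.87, while B cell and ATII markers lie at −0.98 and −1.21.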

How the data were processed

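The authors deposited raw counts of reads on coding sequence (STAR on mm9, that is NCBIM37; htseq-count with GENCODE M1), without normalization or filter, for 22756 genes in each of 8 libraries. All 22756 matched GENCODE M1 by identifier and symbol, which gave coordinates and CDS lengths. The libraries were stranded; the strand setting of the counting is not given in the sources used here, and no receptor shares CDS with another gene. RPM used library totals. The study's filter (a mean of 200 or more counts; immunoglobulin, histocompatibility, Gm and ribosomal genes left out by name) was applied, and the 4 groups were fitted to all 8 libraries with edgeR 4.0.16 in R 4.3.3 (quasi-likelihood test, TMM, Benjamini-Hochberg adjustment over 7190 genes at 0.05, limma 3.58.1). Each SE was derived from the log2 fold-change and its F statistic. P-values measure the spread between a male and a female library of each group.

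Named were the 10 receptors, the 8 other genes with the highest r to Msr1, markers at 0, and Chrna7. Of each list, the 4 tested genes with the largest genotype difference were named. Ptprc and Krt19 were named after their values were seen. Receptors and lists were chosen with earlier results of these data known. Of the list genes, Syk was not analysed here, and Spi1 is listed as Sfpi1. On simulated counts of the genotype comparison, a log2 change of 2 was put into 200 of 7190 genes. Of these, edgeR called 100% beside 11 false calls, and DESeq2 called 100% beside 29 false calls. The simulation gave every gene 1 dispersion, 0.0767, and no effect of sex or CDS length. It therefore does not measure how often smaller differences, such as those of the receptors beside Msr1, would be called. Alternatives were library size and RLE scaling, DESeq2 1.42.0, filterByExpr, no filter, a lowess offset on log2 CDS length (span 0.667), sex as a replicate block, both together, leaving out each library, TMM-scaled levels, summed AM markers, and leukocyte markers. Markers needed a mean count of 10. A floor of 3 counts was 0.274 to 0.374 RPM and covers counting error only. Motifs were searched in RefSeq promoter windows of GRCm38.p6, a build whose coordinates differ from those of mm9. Python 3.11.15, numpy 2.4.6, pandas 2.3.3 and matplotlib 3.10.9 were used.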

Additional observations from a re-analysis of the deposited data

Results flagged for a closer look

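For 3 of 10 receptors the CS responses lay in opposite directions in the 2 genotypes, in both sexes, so that the genotypes differed in the sign of the same contrast, as they did for 13.8% of tested genes. The response of Cd36 in α7E260A:G minus that in α7G was 0.841 (SE 0.342, adjusted p = 0.997, edgeR interaction) on the log2 scale, that of Mertk was 0.551 (SE 0.358, adjusted p = 0.997), and that of Itgax was 0.365 (SE 0.305, adjusted p = 0.997). None passed after adjustment. With the CDS length offset the difference was 0.85 (SE 0.25) for Cd36, 0.29 (SE 0.22) for Mertk and 0.06 (SE 0.30) for Itgax. With the offset Mertk (0.17 in α7G and 0.46 in α7E260A:G) and Itgax (0.27 and 0.33) were on the same side of 0 in both genotypes, and Cd36 (−0.16 and 0.69) was not.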

How the results depend on the processing

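The levels of low transcripts such as Msr1 in α7G rest on few counts. The receptors beside Msr1 that passed in the genotype comparison numbered 0 of 9 (6 of 7190 genes in all), but 6 with DESeq2 (422 genes), 6 with the CDS length offset (476 genes), 6 with the offset and sex as a replicate block (670 genes, 9.32%), 1 (Marco) without a filter (69 of 17542 genes, 0.393%) and 1 (Marco) with the replicate block (40 genes, 0.556%); leaving out a library gave 0 to 5. Sex deviations of the groups correlated between −0.049 and 0.836, with 1 of 6 pairs of groups under 0.1, so the libraries were taken to share only a sex label, and the block changed no other count of receptors called. Relative to leukocyte markers 2 receptors beside Msr1 were higher and 0 lower. Relative to AM markers, leaving out a library gave 0 to 1 higher beside Msr1. Neither count has a share of all tested genes beside it. Scaling by library size moved the median of all genes to −0.14 for CS in α7G and to 0.22 for the interaction; the interaction of Marco was then 0.129, and Cd14 for CS in α7G −0.0683. With the CDS length offset, alone and with the block, Stab1 between genotypes went to −0.118 and −0.108; for CS in α7G, Clec7a went to −0.272 and −0.275, Itgax to 0.275 and 0.283, Mertk to 0.169 and 0.167 and Cd14 to −0.126 and −0.137; for CS in α7E260A:G, Msr1 went to −0.0111 and −0.0264, Mrc1 to 0.00885 and 0.0212 and, with the offset alone, Stab1 to 0.0027. The cause was not tested. Leaving out a library, where the lone library of a group is assumed to vary like the others, gave values on both sides of 0 between genotypes for Cd36 (−0.159 to 0.023), Stab1 (−0.138 to 0.766) and Cd14 (−0.26 to 0.0998); for CS in α7G for Cd14 (−0.0881 to 0.182); for CS in α7E260A:G for Msr1 (−0.373 to 0.339), Mrc1 (−0.397 to 0.0671), Clec7a (−0.0205 to 0.785), Stab1 (−1.06 to 0.444) and Cd14 (−0.793 to 0.00211); and for the interaction for Marco (−0.705 to 0.375), Clec7a (−0.147 to 0.659) and Stab1 (−0.11 to 1.65). Of the fold-changes of single receptors under the alternatives 283 kept direction and side of the threshold, 20 came past it and 17 changed sign.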
